A study of Rattus norvegicus with 4 samples.

Results

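The Krüppel-like factors examined here are 10 zinc finger transcription factor genes (Klf2, Klf3, Klf4, Klf5, Klf6, Klf7, Klf9, Klf10, Klf13 and Klf15), out of 18166 genes measured in primary rat astrocytes. Members were taken by name, through the probes that the platform annotation gives to that gene symbol alone. The set was chosen with earlier results of these data known, so member counts beside the share of all genes are descriptive only. Each of the 10 had 1 such probe. The astrocytes came from the cerebral cortex of Sprague-Dawley rats aged 1 day and were kept without serum for 2 days to deplete microglia and meningeal cells. The 4 cultures were SHP siRNA with interferon-γ (IFN-γ) and a compound labelled GW, control siRNA with IFN-γ and GW, control siRNA with IFN-γ, and control siRNA with no treatment, called untreated below. All 4 were transfected with an siRNA, the 3 treated cultures were exposed for 3 h, and each culture was measured on 1 array. The values therefore carry no replicate error, no test between conditions was possible, and every difference below is between single cultures.

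Krüppel-like factors bind GC-rich and CACCC sequences through a shared set of zinc fingers at their C-terminal end. They fall into groups by the partner that the rest of the protein binds. Klf2, Klf4, Klf5, Klf6 and Klf7 belong to the activators, which recruit acetyltransferases. Klf9, Klf10 and Klf13 bind the corepressor Sin3, Klf3 binds the corepressor CtBP, and Klf15 is usually left outside these groups. Several members are induced within minutes to hours by growth factors, shear stress or cytokines, and in neurons different members promote or restrain axon growth.

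The values are read as log2 signal, so a difference of 1 is 2-fold. All 40 member values lay between 6.23 and 12.07, above 5.83, the median of the whole table, and all 10 members passed the level filter (highest of the 4 arrays at or above that median), as did 11790 genes. Array medians lay between 5.79 and 5.87. Nr0b2, which encodes SHP, read 3.45 in the SHP siRNA culture, against 5.20 in the control siRNA culture with IFN-γ and GW, 5.14 with IFN-γ and 5.33 in untreated cells, all below the table median, so its level over background is not known. Astrocyte markers were present, with Gfap between 12.03 and 12.11 in the 4 cultures, and so were microglial ones. Of 9 neuron markers, 4 passed the level filter, beside 11790 of 18166 genes, so passing it does not by itself show presence. Stmn2, 1 of the 4, read 11.68 to 12.04.

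**Figure D1:**
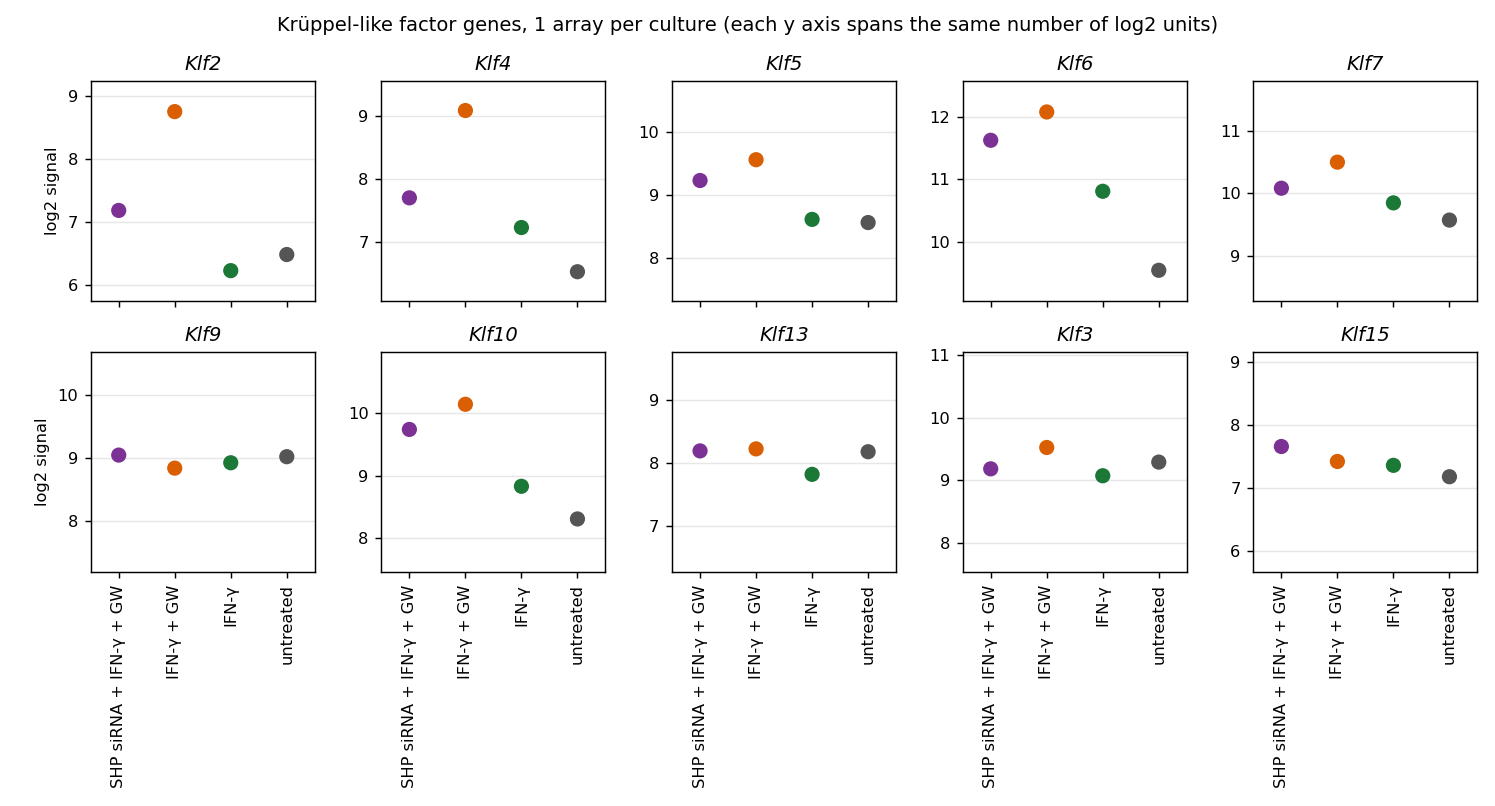
Log2 signal of each Krüppel-like factor gene (y axis) in the 4 cultures (x axis), 1 point per array and no error bars because each culture had 1 array. Klf2, Klf4, Klf6 and Klf10 stand highest with IFN-γ and GW, while Klf9 spans 0.21 log2 units over all 4 arrays.

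The activators held the members that differed most between cultures. Klf2, which keeps endothelial cells and T lymphocytes quiescent, had a log2 signal of 7.19 in SHP siRNA cells with IFN-γ and GW, 8.76 in control siRNA cells with IFN-γ and GW, 6.23 with IFN-γ alone and 6.49 in untreated cells. Klf4, a differentiation factor of epithelia and macrophages that is also used to reprogram cells, read 7.70, 9.09, 7.23 and 6.53 in the same order of cultures. Both genes were highest where GW was added under control siRNA, but their lowest culture differed: it was the IFN-γ culture for Klf2 and the untreated culture for Klf4.

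Klf6, a factor induced by injury in vessels and liver, read 11.62 in SHP siRNA cells with IFN-γ and GW, 12.07 with IFN-γ and GW under control siRNA, 10.81 with IFN-γ and 9.56 untreated. Of the 10 members it had its untreated value farthest below the nearest treated culture, by 1.26 log2 units. Klf5, which supports proliferation of epithelium and smooth muscle, read 9.24, 9.57, 8.62 and 8.57 in that order, so both cultures with GW lay above both cultures without it. Klf7, which promotes axon outgrowth in neurons, read 10.08, 10.50, 9.85 and 9.58, the same order of cultures as Klf4 and Klf6 over a narrower range of 0.92.

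Among the Sin3-binding members only Klf10, the early response gene of transforming growth factor-β, ranged widely. It read 9.73 in SHP siRNA cells with IFN-γ and GW, 10.13 with IFN-γ and GW under control siRNA, 8.83 with IFN-γ and 8.31 untreated. Klf9, a glucocorticoid-induced and thyroid hormone-induced gene that restrains axon growth, read 9.04, 8.83, 8.92 and 9.02, with no culture standing apart. Klf13, which activates the chemokine gene Ccl5 in T lymphocytes, read 8.19, 8.22, 7.82 and 8.18, lowest with IFN-γ alone and nearly level in the other 3 cultures.

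The CtBP-binding repressor Klf3 read 9.18, 9.52, 9.07 and 9.29 in the same order, a range of 0.45. Klf15, a glucocorticoid-induced regulator of glucose and amino acid metabolism, read 7.66, 7.42, 7.36 and 7.18, and with Klf9 it was 1 of 2 members highest in the SHP siRNA culture. The other 8 members were highest with IFN-γ and GW under control siRNA. Untreated cells held the lowest value of 6 members, the IFN-γ culture that of 3 (Klf2, Klf3 and Klf13) and the control siRNA culture with GW that of 1 (Klf9).

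The regions upstream of Klf5, Klf6 and Klf9 are shown because only these members had a usable window. Klf2, Klf4 and Klf10 had none. Of those shown, Klf6 differed widely between cultures, Klf5 was intermediate and Klf9 was the flattest member. They are the 250 bases before the start site in RefSeq's GRCr8 annotation. Of 7 members in that promoter table, these 3 had a window lying wholly outside the annotated span of their own gene. Capitals mark matches to the CArG box, which serum response factor binds, the AP-1 pattern TGANTCA and the GAS element TTCNNNGAA, which STAT proteins bind. N stands for any base.
Klf6, chr17:69458479-69458728, minus strand: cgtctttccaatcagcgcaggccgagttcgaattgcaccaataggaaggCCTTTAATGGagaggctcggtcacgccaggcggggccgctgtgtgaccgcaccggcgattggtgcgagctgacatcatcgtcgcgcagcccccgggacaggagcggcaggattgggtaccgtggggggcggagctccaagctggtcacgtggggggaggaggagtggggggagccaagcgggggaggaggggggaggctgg
Klf5, chr15:82471831-82472080, plus strand: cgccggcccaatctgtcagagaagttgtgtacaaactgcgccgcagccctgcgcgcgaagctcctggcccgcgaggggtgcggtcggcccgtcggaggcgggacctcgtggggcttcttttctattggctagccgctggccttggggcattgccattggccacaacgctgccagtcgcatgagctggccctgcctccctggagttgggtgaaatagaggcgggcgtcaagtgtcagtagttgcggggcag
Klf9, chr1:230126396-230126645, plus strand: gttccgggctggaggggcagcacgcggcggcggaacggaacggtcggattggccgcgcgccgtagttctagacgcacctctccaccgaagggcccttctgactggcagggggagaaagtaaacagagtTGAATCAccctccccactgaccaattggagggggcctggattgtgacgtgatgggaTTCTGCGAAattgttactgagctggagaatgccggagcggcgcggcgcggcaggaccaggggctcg

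Both strands of each window were searched. A CArG box was found in Klf6, 201 bases upstream of the start, and 1.61% of 19339 such windows in the annotation held one. Matches to the AP-1 pattern (6.90% of windows) and to the GAS element (8.06%) were found in Klf9, 122 and 66 bases upstream. The AP-1 pattern allows any central base, and the Klf9 match reads TGAATCA. Binding of AP-1 there was not tested. The Klf5 window held none of the 3 marked patterns. Whether any match bears on how much the 3 genes differed was not tested, and 3 windows cannot decide it.

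The GC box GGGCGG, a core Sp and KLF sequence, lay in the Klf6 window and in 24.9% of all windows. The CACCC motif lay in the Klf5 and Klf9 windows and in 47.0% of all, and in Klf9 it shares bases with the AP-1 match. The cAMP response core TGACG also lay in the Klf5 and Klf9 windows, against 16.6% of all. Neither an NF-κB site (3.14% of windows), a MEF2 site (3.67%) nor the TATAAA motif (15.2%) was found in any of the 3. The windows were GC-rich, at 67.2% for Klf6, 65.2% for Klf5 and 63.6% for Klf9, against a median of 49.2%.

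With IFN-γ, set against no treatment, Klf6 was the 1 member at least 2-fold apart. It was 2.39-fold higher, the 132nd highest difference of 11790 genes. Klf4 was 1.63-fold higher and Klf10 1.43-fold higher, while Klf2 differed by -0.26 log2 and Klf13 by -0.36. At 2-fold, 1 of 10 members was higher, against 1.61% of all genes, and 0 were lower, against 0.288%. The member median was 0.12, beside -0.04 over all genes, and 6 members lay above 0 and 4 below. The middle 95% of all genes ran from -0.48 to 0.67, and Klf6 and Klf4 lay beyond it.

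Of the 3 main comparisons, GW added to IFN-γ had the most members at 2-fold. Klf2 was 5.77-fold higher than with IFN-γ alone, the 16th highest difference of 11790 genes, and Klf4 was 3.63-fold higher, the 36th. Klf10 and Klf6 were 2.47-fold and 2.40-fold higher. In all, 4 of 10 members were at least 2-fold higher, beside 0.958% of all genes, and 0 were at least 2-fold lower, beside 0.95%. The members were chosen with earlier results known. Of 6 other Krüppel-like factor genes measured, 3 passed the level filter and 0 of these were 2-fold apart with GW. Klf5 was 1.93-fold higher, just under that limit, and passed it after quantile normalization, median centring or cyclic loess, which made the count 5.

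Klf7 was 1.57-fold higher with GW, and 6 members lay above 0.62, the upper end of the middle 95% of all genes. Klf3 and Klf13 differed by 0.45 and 0.40 log2, Klf15 by 0.06, and Klf9 by -0.09, the 1 member below 0. The member median was 0.80, beside -0.05 over all genes. By group, the 5 activators ran from 0.65 to 2.53, the 3 Sin3-binding members from -0.09 to 1.30.

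**Figure D2:**
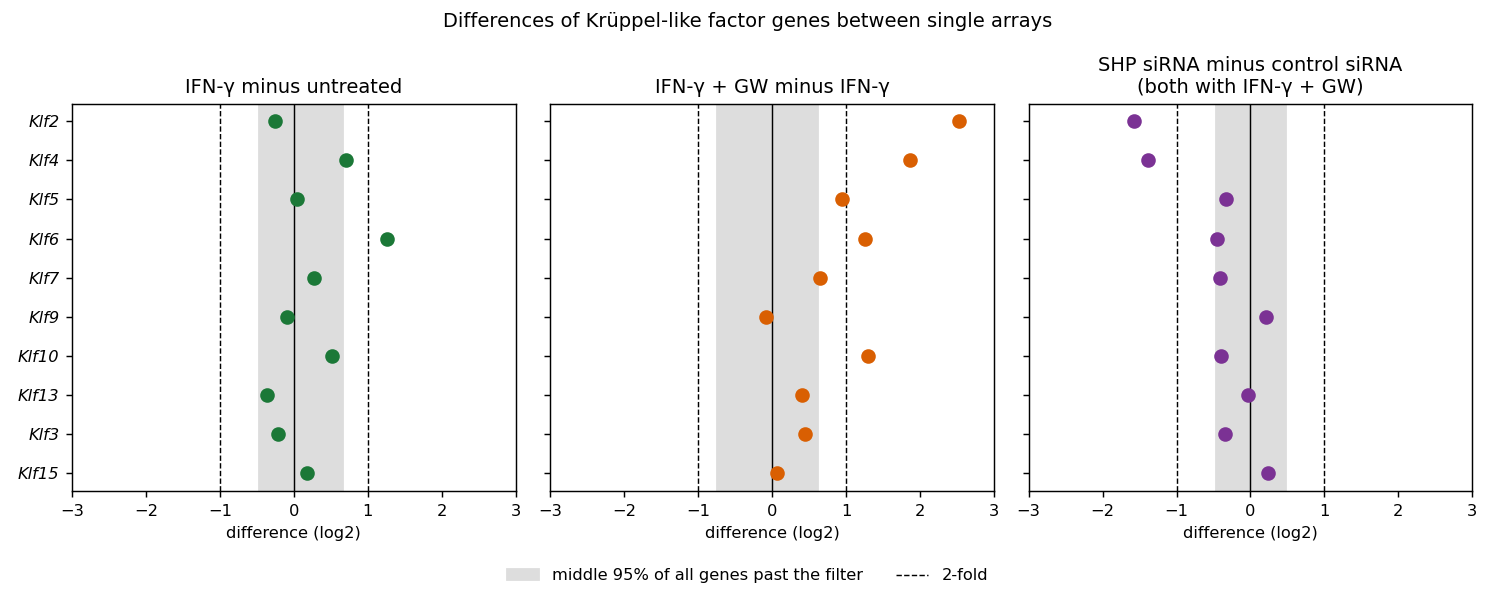
Log2 differences of the members between 2 arrays (x axis, 1 point per gene) in the 3 main comparisons, with the middle 95% of all genes past the level filter shaded and dashed lines at 2-fold. Of the 10 members, 1 passes 2-fold with IFN-γ, 4 with GW and 2, in the lower direction, with SHP siRNA.

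SHP siRNA, set against control siRNA with both cultures under IFN-γ and GW, went with lower Klf2 and Klf4. Klf2 was 2.97-fold lower, the 5th lowest difference of 11790 genes, and Klf4 2.62-fold lower, the 10th lowest. These were 2 of 10 members at least 2-fold lower, beside 0.263% of all genes, and 0 members were at least 2-fold higher, beside 0.144%. The other 8 members differed by -0.45 (Klf6) to 0.24 (Klf15) log2, all inside the middle 95% of all genes, which ran from -0.46 to 0.48. The member median was -0.37, beside 0.01 over all genes, and 8 members lay below 0 and 2, Klf9 and Klf15, above.

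Klf2 and Klf4 were thus at least 2-fold apart in both the GW and the SHP siRNA comparison, while Klf6 and Klf10 differed with SHP siRNA by -0.45 and -0.40 log2. The GW and SHP siRNA comparisons share the control siRNA array with IFN-γ and GW, whose error enters them with opposite signs, so a high reading on that array alone would raise the first difference and lower the second. The IFN-γ and GW comparisons likewise share the IFN-γ array.

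The arrays with GW were also set against the untreated array and the IFN-γ array. Control siRNA cells with IFN-γ and GW, against untreated cells, held Klf4 at 5.91-fold, Klf6 at 5.72-fold, Klf2 at 4.83-fold and Klf10 at 3.54-fold. These were 4 of 10 members at least 2-fold higher, beside 1.65% of all genes, with Klf5 at the limit (log2 difference 1.00, fractionally below it) and Klf7 at 0.92. Klf5 passed under all 3 other scalings, and Klf7 after median centring and cyclic loess.

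A comparison that leaves out the control siRNA array with GW sets SHP siRNA cells with IFN-γ and GW against untreated cells. There Klf6 was 4.19-fold higher, Klf10 2.68-fold and Klf4 2.26-fold, so 3 of 10 members passed 2-fold, beside 1.59% of all genes. Klf2 was 1.63-fold higher. Against the IFN-γ array the SHP siRNA culture held all 10 members above 0, with Klf2 at 0.96, Klf10 at 0.90, Klf6 at 0.81, Klf5 at 0.62 and Klf4 at 0.47 log2. None of them reached 2-fold (0 of 10, beside 0.45% of all genes), though Klf2 did after median centring, at 1.03.

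Other genes with the same zinc finger fold were read beside the members. Of 8 other Krüppel-like factor genes listed, 6 were measured and 3 passed the level filter (Klf11, Klf12 and Klf16), and none was 2-fold apart in any of the 3 main comparisons (0 higher and 0 lower). Klf11, the closest relative of Klf10, read 7.22 in SHP siRNA cells with IFN-γ and GW, 7.37 with IFN-γ and GW, 6.47 with IFN-γ and 7.07 untreated. It was lowest with IFN-γ alone, with a difference of -0.60 from untreated and 0.90 between the GW and IFN-γ cultures. Of 9 Sp genes, 8 passed the filter, 0 were 2-fold apart, and their medians were 0.01 with IFN-γ, 0.23 with GW and 0.00 with SHP siRNA. The Sp differences ran from -0.32 to 0.41 over the 3 comparisons.

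**Figure D3:**
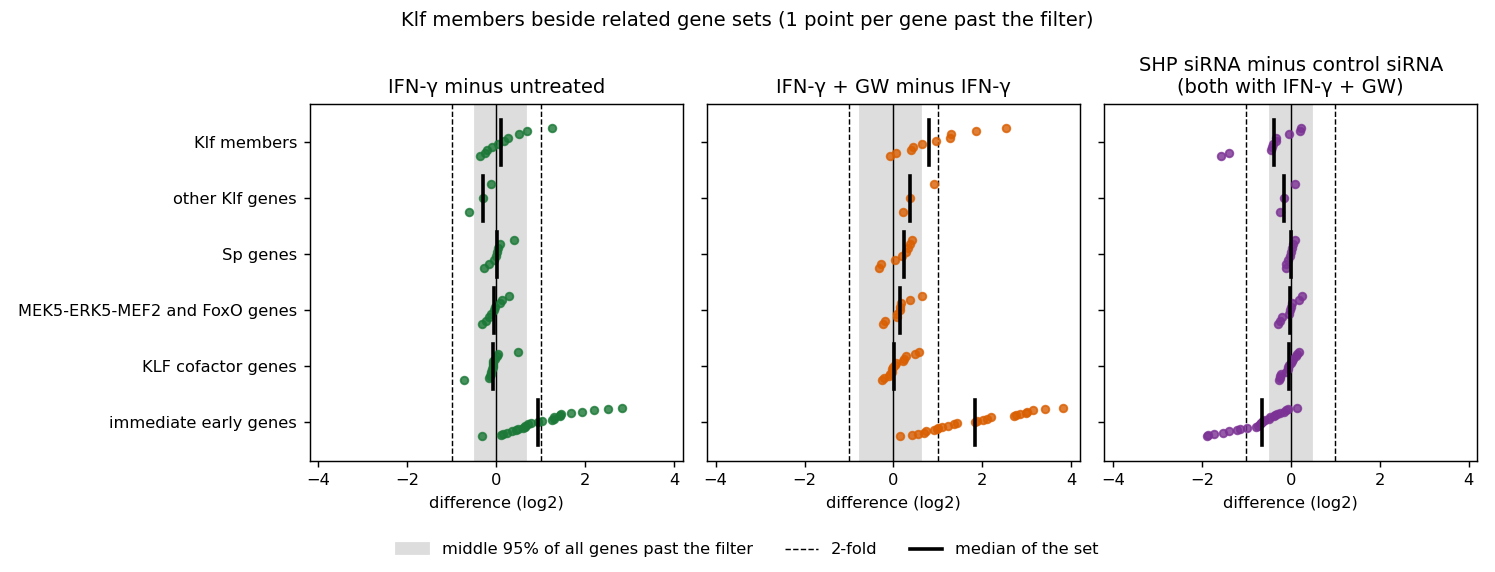
Log2 differences (x axis) of the Krüppel-like factor members and 5 related gene sets (rows) in the 3 main comparisons, with 1 point per gene past the level filter, black bars at set medians, shading for the middle 95% of all genes and dashed lines at 2-fold. Immediate early genes have medians of 0.93, 1.84 and -0.64 in the 3 comparisons, beside 0.12, 0.80 and -0.37 for the members.

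Genes that act upstream of Klf2 and Klf4 in other cell types, the MEK5, ERK5 and MEF2 chain and FoxO factors, showed 0 of 9 at 2-fold in each main comparison. Their medians were -0.04 with IFN-γ, 0.15 with GW and -0.01 with SHP siRNA. Foxo1 differed most, by 0.65 with GW, and Mapk7, which encodes ERK5, differed by 0.29, 0.09 and -0.28 in the 3 comparisons. Of 14 genes for coactivators, corepressors and ubiquitin ligases of Krüppel-like factors, 0 were 2-fold apart. Fbxo32, an F-box ligase gene, was lowest with IFN-γ at -0.72, and the acetyltransferase gene Crebbp was highest with GW at 0.57, and the set medians were -0.08, 0.02 and -0.05.

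Immediate early genes, which many stimuli induce without new protein synthesis, had medians of 0.93, 1.84 and -0.64 in the 3 comparisons. Of 25, 12 were at least 2-fold higher with IFN-γ, 18 with GW and 0 with SHP siRNA, where 7 were at least 2-fold lower. Maff led with IFN-γ (2.82) and Fosb with GW (3.80), and Egr4 was lowest with SHP siRNA (-1.88). Early transforming growth factor-β response genes, the class in which Klf10 was found, had medians of -0.05, 0.29 and 0.06 over 10 genes, with 0, 2 and 0 at 2-fold. The 2 were the inhibitors of differentiation Id1 (2.10) and Id3 (1.20) with GW. Glucocorticoid-induced genes, the class of Klf9 and Klf15, had medians of -0.01, 0.03 and -0.02 over 10 genes. In that list the clock gene Per1 (1.90), the feedback inhibitor gene Errfi1 (1.70) and the kinase gene Pdk4 (1.42) were at least 2-fold higher with GW, and Pdk4 was at least 2-fold lower with IFN-γ (-1.25).

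Genes that Klf2 or Klf4 raises in endothelium or lymphocytes were mostly similar between cultures. Among 7 that passed the filter, 0 were 2-fold apart with IFN-γ or with GW, and 1 reached 2-fold with SHP siRNA, the water channel gene Aqp1. Aqp1 read 9.27 in SHP siRNA cells with IFN-γ and GW, 7.77 with IFN-γ and GW, 8.76 with IFN-γ and 8.52 untreated, so it was lowest where Klf2 and Klf4 were highest. The medians of this list were 0.24, -0.19 and -0.09. The endothelial nitric oxide synthase gene Nos3 lay below the table median in all 4 cultures, at 5.40 to 5.74, and the thrombomodulin gene Thbd differed by 0.00, 0.17 and -0.09.

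Genes that Klf2 or Klf4 lowers in endothelium or myeloid cells are mostly inflammatory. In this list 9 passed the filter, and 7 of them were higher by 2-fold or more with IFN-γ, where Klf2 differed by -0.26 and Klf4 by 0.70. With GW 1 was lower by that much, the interleukin gene Il1b (-1.94), and 0 higher, and with SHP siRNA 0 passed in either direction. The medians were 1.66, -0.24 and 0.08. The adhesion gene Vcam1 read 11.86 in SHP siRNA cells with IFN-γ and GW, 11.30 with IFN-γ and GW, 12.22 with IFN-γ and 10.79 untreated. The tissue factor gene F3, another member of the list, read 8.32, 9.09, 8.25 and 8.26, highest in the same culture as Klf2 and Klf4. Il6 and Ptgs2 were highest there too. Il6 differed by 0.49 with GW and -0.92 with SHP siRNA, and Ptgs2 by 0.93 and -0.46. These 3 genes lay above 0 with GW, and the other 6 past the filter lay below.

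Of 11612 named genes past the filter, those nearest in pattern were found by the distance between their log2 differences from the untreated array in the 3 treated arrays. Nearest to Klf2 were the pseudokinase gene Trib1 (distance 0.46), the small heat shock gene Cryab (0.51), the activity-regulated factor gene Npas4 (0.64), Errfi1 (0.64) and the insulin receptor substrate gene Irs2 (0.65). All 5 lay farther from Klf2 than Ier2 did from Klf4, and none of the 5 lay below its untreated value with IFN-γ, whereas Klf2 did. Npas4 lay below the table median in 3 cultures, at 4.90 to 5.51, so the size of its differences is uncertain.

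Nearest to Klf4 were the immediate early gene Ier2 (0.20), the growth factor gene Hbegf (0.35), the calcineurin inhibitor gene Rcan1 (0.51), the glutathione-degrading enzyme gene Chac1 (0.54) and Dlc1 (0.60). Nearest to Klf6 were the zinc finger gene Egr1 (0.24), the RNA decay gene Zfp36 (0.32), the deadenylase-family gene Noct (0.38), the AP-1 gene Fosl1 (0.51) and the Runt factor gene Runx1 (0.54). Nearest to Klf10 were the growth regulator gene Myc (0.11), the cytokine gene Clcf1 (0.22), the clock-associated gene Bhlhe40 (0.31), the NF-κB-inducing kinase gene Map3k14 (0.32) and Dlc1 (0.34). Myc read 9.84, 10.15, 8.80 and 8.31 in the order used above, beside 9.73, 10.13, 8.83 and 8.31 for Klf10. The Klf4 list and the Klf10 list share Dlc1, and the lists of Klf2 and Klf6 share no gene with any other.

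**Figure D4:**
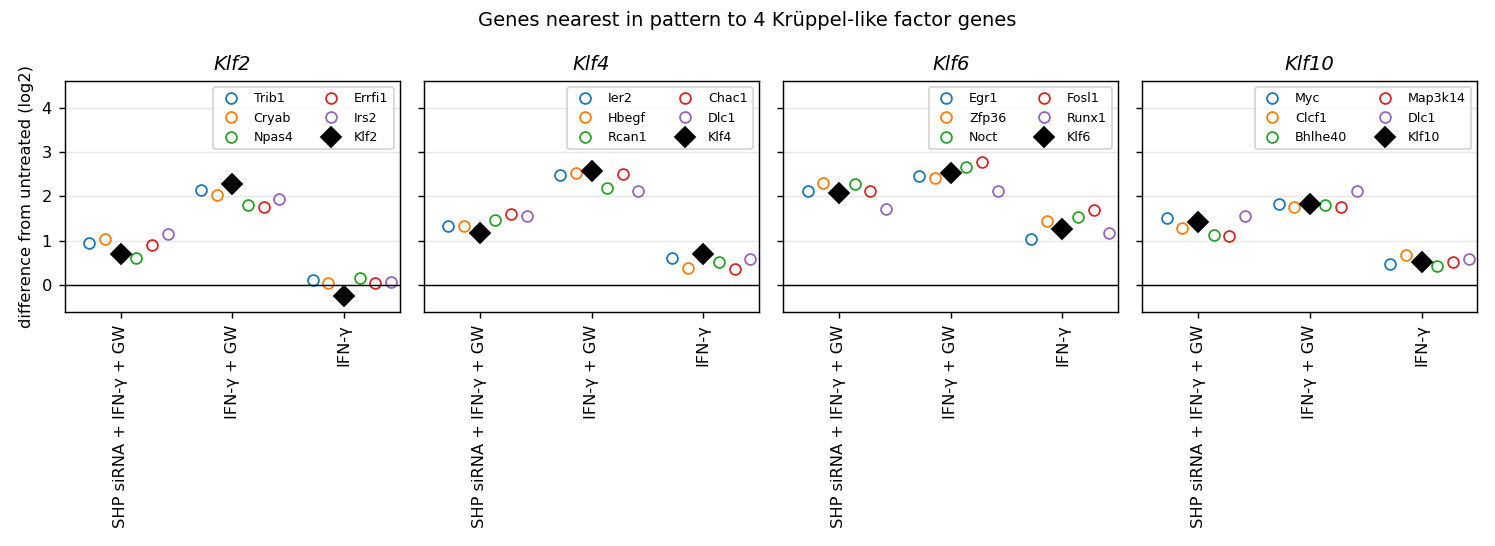
Log2 difference from the untreated array (y axis) in the 3 treated cultures (x axis) for Klf2, Klf4, Klf6 and Klf10 (black diamonds) and, in open circles set side by side, the 5 genes nearest to each. Klf10 and Myc lie 0.11 apart over the 3 differences, whereas the nearest gene to Klf2 lies at 0.46.

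Klf2 and Klf4 are also expressed by endothelial, mural and myeloid cells, so markers of these cells were read beside them. In cultured RNA, fewer cells of a type and less RNA per cell cannot be told apart. Microglial markers were lower with treatment: the summed linear signal of 14 genes was 6723 in SHP siRNA cells with IFN-γ and GW, 6140 with IFN-γ and GW, 8592 with IFN-γ and 11133 untreated. Klf2 and Klf4 were thus highest in the culture where this sum was lowest. Of the 14, 13 lay below 0 with IFN-γ (median -0.44), 12 with GW (median -0.47) and 3 with SHP siRNA (median 0.14). The markers did not move alike: with GW, Tyrobp was lowest (-1.22), while Cx3cr1 (0.68) and Tmem119 (0.21) lay above 0. All 14 passed the filter, and their part in the member differences was not tested.

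Of 12 endothelial markers listed, 9 were measured and 2 passed the filter (Cdh5 and Flt1). Cdh5 read 7.86 in SHP siRNA cells with IFN-γ and GW, 7.32 with IFN-γ and GW, 7.67 with IFN-γ and 7.70 untreated. The summed signal of the 9 was 553, 455, 511 and 507 in the same order, and 7 defining markers, such as Tie1 (4.44 to 4.89), Cldn5 (4.92 to 5.06) and Vwf (5.50 to 5.63), lay below the table median in every culture. Cdh5 differed by -0.36 with GW, where Klf2 differed by 2.53, and by 0.55 with SHP siRNA. Mural markers, 7 of 8 measured and 4 past the filter, had medians of 0.10, 0.05 and -0.14 and sums of 1136, 1155, 1170 and 1231. Meningeal and fibroblast markers, 6 of 9 past the filter, had medians of 0.06, -0.13 and 0.49, and their sum was highest with SHP siRNA, at 2436 against 1665 with IFN-γ and GW, 1861 with IFN-γ and 1732 untreated.

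The 9 astrocyte markers measured, of 12 listed, had medians of 0.08, -0.23 and 0.19 in the 3 comparisons, with 0 at 2-fold. Their summed signal was also highest with SHP siRNA, at 18675 against 15713 with IFN-γ and GW, 17566 with IFN-γ and 16124 untreated. Aqp4 ranged most of the 9, at 12.01, 11.31, 11.54 and 11.01 in the same order, while Gfap lay between 12.03 and 12.11. With SHP siRNA, 6 of the 9 lay above 0 and 3 below, so the sum does not stand for every marker. Oligodendrocyte lineage markers (8 of 9 measured, 7 past the filter) had medians of -0.05, 0.00 and 0.00. Neuron markers (4 of 9 past the filter) had medians of 0.13, 0.13 and -0.05, and both sets had 0 at 2-fold. What part the meningeal or other marker differences had in the lower Klf2 and Klf4 with SHP siRNA was not tested.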

How the data were processed

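Per the labels' protocols, Trizol was used to extract RNA, and biotin was added to fragmented sense cDNA by terminal transferase. In the authors' deposited table each of 29489 probes has 1 value on each of 4 arrays, taken as log2 signal because values run from 1.14 to 13.4. How the values were corrected, summarised and normalized, and the log base, is not given in the sources used, and no detection call was used. The platform annotation gave 1 symbol to 18511 probes, several to 575 and none to 10403. Symbols were updated through RefSeq GRCr8, and the probe with the highest mean stood for a gene. Genes whose highest value reached the table median of 5.83 were kept.

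Each comparison is a difference of 2 arrays, called at 2-fold, with 3 main and 3 other comparisons. With 1 array per group no p-value or SD exists, and precision is limited by the number of arrays. The members and the 16 gene lists were chosen with earlier results of these data known. Genes absent from these counts were not analysed here. Named genes are the members, up to 4 per list and comparison with the greatest differences, other Klf and Sp genes at least 1.5-fold apart, and the 5 nearest genes of each member past 2-fold. Nos3, Thbd, Gfap, Tmem119, Tie1, Cldn5 and Vwf were named outside this rule, after their values were seen. Alternatives were quantile normalization, median centring, cyclic loess (limma 3.58.1, R 4.3.3), no filter, a filter on the mean, the mean of probes, and limits of 1.5-fold and 3-fold. The counting was tested on simulated data, with added changes all above 2-fold and noise below the spread between these arrays. That test checks the code and does not measure how reliable the calls are. Other steps used Python 3.11.15.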

Additional observations from a re-analysis of the deposited data

How the results depend on the processing

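No paired analysis was possible because each group had 1 array. No member changed sign in a main comparison under the 3 scalings. The 2 other filters and the mean of probes could not alter a member's difference, because each member had 1 probe and passed every filter. Member medians ran from 0.12 to 0.15 with IFN-γ, 0.80 to 0.89 with GW and -0.39 to -0.37 with SHP siRNA. A looser or tighter limit moves the counts by construction. At 1.5-fold, 2 members were higher with IFN-γ, beside 356 of 11790 genes higher and 187 lower. With GW 6 members were higher, beside 332 genes higher and 586 lower. With SHP siRNA 2 members were lower, beside 168 genes higher and 142 lower. For the SHP siRNA culture against IFN-γ, 4 members were higher, beside 236 genes higher and 438 lower. At 3-fold, 0 members were called with IFN-γ (80 genes higher, 2 lower). With GW 2 were higher (50 genes higher, 26 lower), and with SHP siRNA 0 were called (1 gene higher, 4 lower). Over all genes, calls at 2-fold with SHP siRNA numbered 27 higher and 48 lower without the filter, against 17 and 31 with it. Median centring moved the split of higher and lower genes from 194 and 99 to 222 and 64 for IFN-γ with GW against untreated, from 188 and 104 to 226 and 65 for SHP siRNA with IFN-γ and GW against untreated, and from 53 and 48 to 67 and 34 for that culture against IFN-γ. Ranking by Pearson correlation over 4 arrays, which ignores the size of a change, kept 0 of the 5 nearest genes of Klf2, Klf4, Klf6 or Klf10, so those names depend on the measure of likeness. No detection level was available, so signal over background is unknown.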
